A study of Homo sapiens with 6 samples.

Results

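DEAD and DEAH box RNA helicases are enzymes that use ATP to open short RNA duplexes or to strip proteins from RNA, and they take their name from a conserved stretch of the ATP-binding core. The genes described here were all genes of the count table whose symbol is DDX or DHX followed by a number and at most 1 letter. DDX60 and DDX60L were left out, and a gene had to reach 10 counts in at least 3 of the 6 libraries. Of 56 symbols that match the pattern, 50 met these conditions, out of 62754 genes in the table. 2 were the genes left out by name, and 4 (DDX4, DDX25, DDX43 and DDX53) had too few counts. DDX3Y was the member nearest the minimum, with 20, 23 and 13 counts in the control libraries and 30, 24 and 38 counts in the knockdown libraries. DDX43, just under it, had 4, 6 and 4 counts against 7, 6 and 14. All 50 also passed the filter for the test, and 48 are protein-coding in GENCODE 29 while DDX12P and DDX12B are annotated as pseudogenes.

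The libraries came from HK-2, an immortalized line of human proximal tubule epithelium. All cells received Cisplatin, a platinum drug that crosslinks DNA and injures the proximal tubule, and the study's methods give 20 μM for 24 hours as the condition used in these cells. The group CP+siNC was transfected with a negative control siRNA and the group CP+siNAT10 with siRNA against NAT10, with 3 libraries each, so the comparison asks what loss of NAT10 does to helicase mRNA in Cisplatin-treated cells. Cells without Cisplatin were not analysed here, and the labels do not say whether the 3 libraries of a group came from separate cultures, so p-values measure the spread between these libraries, which may be technical. The CP+siNC libraries held 19321665, 21602988 and 19464027 counts, and the CP+siNAT10 libraries 20793709, 21531774 and 25192736. Levels are given as CPM, relative to the library size after TMM scaling. The test is edgeR's quasi-likelihood F test, and its p-values were adjusted by the method of Benjamini and Hochberg over all 19874 tested genes.

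As background, members of the family act at nearly every step in the life of an RNA. In the nucleolus they release small nucleolar RNAs from ribosomal RNA precursors, in the spliceosome they drive the exchange of base pairs between snRNAs and intron, and in the cytoplasm they remodel mRNA for translation or decay. DDX17 and its closest paralog DDX5 also assist transcription factors and the processing of microRNA precursors. NAT10, the target of the siRNA, is an acetyltransferase that modifies cytidines in RNA and works in the nucleolus on the small ribosomal subunit. DDX17 stands in the title of the study beside NAT10.

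The helicase box itself is shown for members that the results turn on, because the family is defined by it. So short a window of a conserved stretch does not measure how close paralogs are over their whole length. Each line gives 36 coding bases, 5′ to 3′, of the longest coding transcript in GENCODE 29 (GRCh38), and the capitals mark the 12 bases that encode the box.
DDX17: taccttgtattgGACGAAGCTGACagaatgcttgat
DDX5: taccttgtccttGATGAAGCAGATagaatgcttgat
DDX50: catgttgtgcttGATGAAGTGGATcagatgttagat
DDX21: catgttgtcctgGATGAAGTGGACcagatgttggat
DDX46: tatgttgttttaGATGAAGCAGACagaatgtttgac
DHX15: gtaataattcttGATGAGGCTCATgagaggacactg
DDX10: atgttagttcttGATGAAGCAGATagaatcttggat
DHX37: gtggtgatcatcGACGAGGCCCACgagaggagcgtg
DDX51: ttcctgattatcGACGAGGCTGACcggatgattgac
The DDX17 window lies in exon 7 on the minus strand at chr22:38494931-38494966, and that of DDX5 also in exon 7 on the minus strand at chr17:64503233-64503268. They differ at 6 of 36 bases, 3 of them within the box. The windows of DDX50 (chr10:68913489-68913524) and DDX21 (chr10:68967116-68967151), neighbours on the plus strand of chromosome 10, lie in exon 6 of each gene and differ at 4 bases, 1 of them within the box. The DDX46 window is in exon 13 at chr5:134790499-134790534 on the plus strand, and that of DHX15 in exon 4 at chr4:24556311-24556346 on the minus strand. The DHX37 window is in exon 8 at chr12:124971356-124971391 on the minus strand. The windows of DDX10 (chr11:108678429-108679399, plus strand, exons 5 and 6) and DDX51 (chr12:132141391-132141503, minus strand, exons 7 and 8) each cross an exon junction.

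The markers of the labelled cell type were checked first. Among proximal tubule markers, GGT1 was at 33.0, 33.2 and 33.4 CPM in the control and 29.1, 25.3 and 27.9 CPM in the knockdown libraries, and SLC5A2 at 9.88, 9.72 and 8.31 CPM and 11.5, 11.7 and 11.5 CPM. GGT1 was lower and SLC5A2 higher in every knockdown library, with log2 fold changes of -0.28 and 0.31. AQP1 was low, at 1.03 ± 0.216 CPM (SD, n = 3) and 0.694 ± 0.161 CPM (SD, n = 3), with overlapping groups. LRP2, CUBN, SLC34A1, SLC22A6, SLC22A8, ANPEP, MME and HNF4A each had at most 10 counts in any library. Of 8 general kidney epithelial markers 7 were tested, with KRT8 the most abundant at group means of 1433 and 1466 CPM of the unscaled library total, while CDH1 had at most 2 counts. KRT8, KRT19 and PAX2 did not pass the test. PAX8, EPCAM and CDH2 were higher, with log2 fold changes of 0.59, 0.31 and 0.20, and KRT18 was lower at -0.36. Of 10 markers of other cell types 3 were tested (CD68, LUM and PTPRC), with sums of 214, 208 and 225 CPM on that scale in the control and 302, 283 and 281 in the knockdown libraries. Nearly all of that sum was CD68, a lysosomal protein. CD68 and PTPRC were higher, with log2 fold changes of 0.40 and 0.96 (adjusted p = 7.97e-10 and 0.0411) and separate groups, while LUM did not pass the test. PTPRC had only 7 to 29 counts, at 0.425, 0.467 and 0.363 CPM in the control and 0.475, 1.33 and 0.671 CPM in the knockdown libraries. Its groups were thus barely separate, and CP+siNAT10 replicate 2 had by far the highest value. PECAM1, CDH5, VWF, DCN, UMOD and NPHS1 had at most 7 counts. The part of these marker differences in the results that follow was not tested. In bulk libraries, fewer cells of a type and less RNA per cell cannot be told apart.

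NAT10 was at 75.8, 71.4 and 73.2 CPM in the 3 control libraries and at 41.3, 40.5 and 42.4 CPM in the 3 knockdown libraries. Every knockdown library was below every control library, as the labels call for. NAT10 (ENSG00000135372, chr11:34105617-34147670, plus strand) fell by 43.6% (log2 fold change -0.82, SE 0.0426, adjusted p = 2.79e-15).

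With NAT10 lowered, the helicase family moved in both directions by small amounts. 19 of the 50 members were higher and 12 lower with an adjusted p under 0.05, against 21.8% and 22.3% of all tested genes, or 44.1% in either direction, while scaling by library size alone gave 23 and 6 members beside 5050 and 3786 of all 19874 genes. The other 19 members did not pass the test. The groups did not overlap for 31 members either, against 51.4% of all tested genes, but these were not the same 31. DHX30 and DDX41 passed with overlapping groups, and DDX20 and DDX3Y did not pass although their groups were separate. Tested against a minimum fold change, a rise of 25% or a fall of 20%, 3 members were higher (DDX10, DHX37 and DDX51) and 1 was lower (DDX46), where 4.75% of tested genes were higher and 5.87% lower by that rule. Without CP+siNC replicate 1 that count of 4 was 2, DDX10 and DHX37. DESeq2's test against the same fold gave 0 members and 916 of all genes after adjustment, with 3 members at an unadjusted p under 0.05. No member reached an adjusted p under 0.05 together with a log2 fold change over 1 in size, which 2.33% of tested genes did. The median log2 fold change of the members was 0.04, beside 0.01 for all tested genes. With scaling by library size alone, these medians were 0.08 and 0.04. Of the called members 61.3% were higher, and 79.3% by that scaling, where 49.4% and 57.2% of all called genes were higher. With at least 50 counts required in 3 libraries, 19 of 49 members were higher and 12 lower, beside 4038 and 4142 of all 14802 genes. The shares of all tested genes given here and below were not matched to the level of the members.

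**Figure D1:**
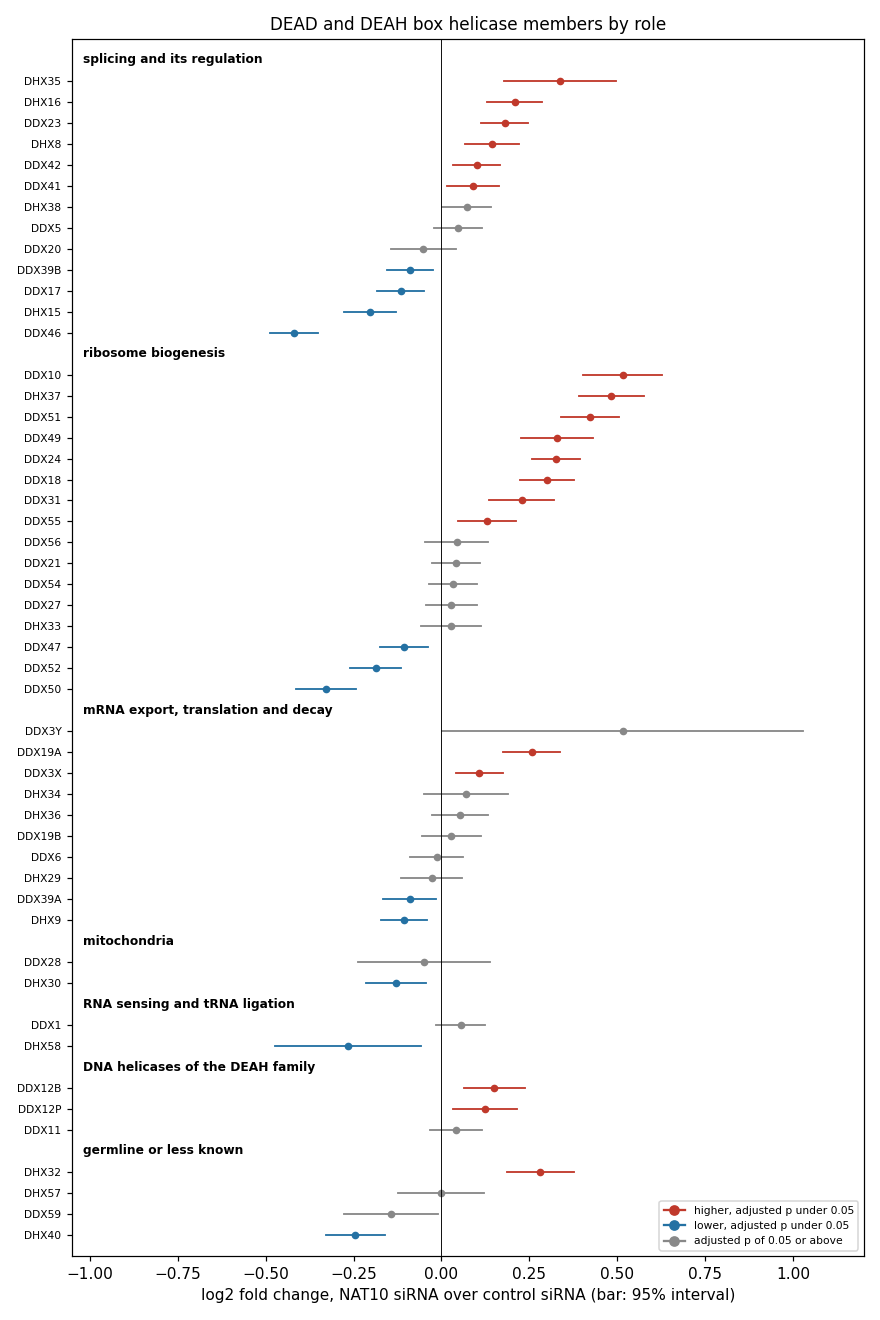
Log2 fold change of each of the 50 members, NAT10 siRNA over control siRNA, grouped by role, with bars for the 95% interval of the fit and colours for the result of edgeR's quasi-likelihood test. The changes run from -0.42 for DDX46 to 0.52 for DDX10.

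**Figure D2:**
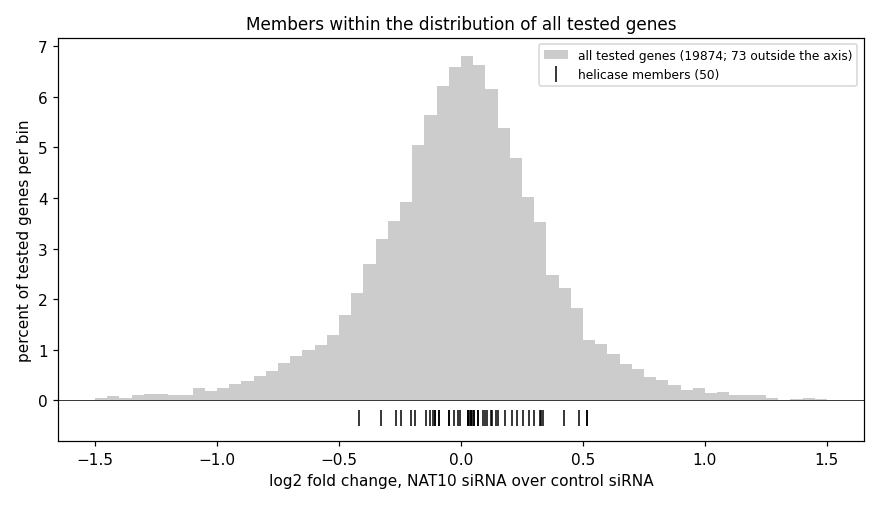
Distribution of the log2 fold change over all 19874 tested genes, in percent per bin, with a tick for each of the 50 members. All members lie between -0.42 and 0.52, and 73 genes lie beyond the axis limits of 1.5 in either direction.

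The members together took 0.961%, 0.943% and 0.956% of all counts in the control libraries and 1.01%, 1.01% and 1.01% in the knockdown libraries. Their summed level was 9861, 9518 and 9663 CPM in the control libraries and 10010.3, 9974 and 10008.9 CPM in the knockdown libraries. The control libraries were all below the knockdown libraries on both scales, and DDX5 alone made up 18.8% of the member counts in each group. Across members the SD was a median of 2.90% of the mean in the control libraries and 2.70% in the knockdown libraries.

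Among the helicases of splicing and its regulation, DDX17 stood at 246, 247 and 243 CPM in the control libraries and at 223, 232 and 225 CPM in the knockdown libraries. All 3 knockdown libraries were below all 3 control libraries. DDX17 (ENSG00000100201, chr22:38483438-38507660, minus strand), a regulator of splicing and a coactivator of transcription, fell by 7.72%, from 246 ± 2.14 CPM (SD, n = 3) to 227 ± 5.00 CPM (SD, n = 3) (log2 fold change -0.12, SE 0.0325, adjusted p = 0.00439, 95% interval -0.18 to -0.05). Its adjusted p was 0.0475 with scaling by library size alone. It did not pass the test against the minimum fold change (adjusted p = 1).

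The paralog DDX5, which shares most known functions with DDX17, was at 1882, 1793 and 1793 CPM in the control and 1868, 1875 and 1905 CPM in the knockdown libraries. CP+siNC replicate 1 lay within the range of the knockdown libraries, so the groups overlapped. DDX5 (ENSG00000108654, chr17:64498254-64508199, minus strand) did not pass the test (log2 fold change 0.05, SE 0.0336, adjusted p = 0.277, 95% interval -0.02 to 0.12), but did with scaling by library size alone (log2 fold change 0.08, adjusted p = 0.0208). Within each library, where scaling cancels, DDX17 counts were 13.1%, 13.8% and 13.6% of DDX5 counts in the control and 11.9%, 12.4% and 11.8% in the knockdown libraries. The log2 ratio of DDX17 to DDX5 counts went from -2.89 ± 0.0394 to -3.05 ± 0.0361 (SD, n = 3), a difference of -0.16, and the groups did not overlap. A two-sided exact permutation test gave p = 0.1, the smallest that 3 against 3 allows (adjusted p = 0.14 over 7 ratios).

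DDX46 had the largest fall of the 50 members. Its mRNA was at 559, 518 and 531 CPM in the control libraries and at 399.5, 404 and 400.2 CPM in the knockdown libraries. The groups lay far apart compared with the spread within them. DDX46 (ENSG00000145833, chr5:134758771-134855133, plus strand), the human counterpart of yeast Prp5 that helps the U2 snRNP bind the branch site, fell by 25.2% (log2 fold change -0.42, SE 0.0336, adjusted p = 3.15e-11, and 0.0107 against the minimum fold change). It did not pass against that minimum with scaling by library size alone or without CP+siNC replicate 1. C5orf24, which overlaps the 3′ part of DDX46 on the same strand with 13.7% as many counts, had a log2 fold change of 0.01 (adjusted p = 0.83).

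Of 13 splicing helicases 6 were higher, 4 were lower and 3 did not pass the test, where 21.8% of all tested genes were higher and 22.3% lower. The median log2 fold change of these 13 was 0.07. The falls other than DDX46 and DDX17 were DHX15 and DDX39B. DHX15, which takes apart the spliceosome at the end of splicing, went from 142, 141 and 146 CPM to 129.7, 122 and 121 CPM. All its knockdown values were lower than its control values (log2 fold change -0.20, SE 0.0357, adjusted p = 2.72e-05). DDX39B, which acts in early spliceosome assembly and in mRNA export, went from 293, 298 and 292 CPM to 274, 274 and 281 CPM (log2 fold change -0.09, SE 0.0319, adjusted p = 0.0221). That small fall did not pass with library size scaling, without the filter or without any of 3 single libraries, CP+siNC replicate 2 and CP+siNAT10 replicates 1 and 2 (adjusted p from 0.0580 to 0.172). The readthrough gene ATP6V1G2-DDX39B overlaps DDX39B on the same strand with 60.4% as many counts and had a log2 fold change of -0.12, so the reads of the 2 genes may be split between them.

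The 6 splicing helicases that were higher are given next. DHX35, a component of the catalytic spliceosome, was at 13.4, 11.8 and 12.2 CPM in the control and 14.1, 16.2 and 16.7 CPM in the knockdown libraries, with the knockdown libraries all higher (log2 fold change 0.34, SE 0.0781, adjusted p = 0.000751). DHX16, which remodels the spliceosome before the first step, went from 81.8 ± 0.944 CPM (SD, n = 3) to 94.5 ± 3.78 CPM (SD, n = 3) with a log2 fold change of 0.21. DDX23, which lets U6 replace U1 at the 5′ splice site, went from 571, 568 and 543 CPM to 637, 639 and 629.5 CPM with a log2 fold change of 0.18. DHX8, which releases the spliced mRNA, had a log2 fold change of 0.14, DDX42 one of 0.10 and DDX41 one of 0.09. DHX38, which acts between the catalytic steps, did not pass the test at 0.07 (adjusted p = 0.087), nor did DDX20 of the SMN complex at -0.05. DHX38 did pass with scaling by library size alone and when either CP+siNC replicate 1 or CP+siNAT10 replicate 3 was left out. DDX42 did not pass without CP+siNC replicate 2 or CP+siNC replicate 3. CCDC47, which overlaps DDX42 on the opposite strand with 94.7% as many counts, had a log2 fold change of 0.42. ETV4, which overlaps DHX8 on the opposite strand with 10.8% as many counts, had one of -0.78. DDX41 had overlapping groups, passed in 5 of 15 settings and had adjusted p from 0.00432 to 0.261.

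The helicases of ribosome biogenesis held the largest rises that passed the test. DDX10, the counterpart of yeast Dbp4 that acts on the small subunit precursor, was at 21.5, 21.7 and 21.3 CPM in the control libraries and at 30.1, 29.6 and 32.4 CPM in the knockdown libraries. DHX37, which removes the U3 small nucleolar RNA from the precursor, was at 53, 58.9 and 58.5 CPM against 82.4, 80.2 and 76.1 CPM. DDX51, which releases the U8 small nucleolar RNA during large subunit assembly, was at 54.2, 55.9 and 54.3 CPM against 75.7, 72.7 and 72.2 CPM. In all 3 genes every knockdown library was above every control library. DDX10 (ENSG00000178105, chr11:108665058-108940898, plus strand) rose by 42.7% (log2 fold change 0.52, SE 0.0552, adjusted p = 8.83e-09, and 0.00257 against the minimum fold change). DHX37 (ENSG00000150990, chr12:124946825-124989131, minus strand) rose by 40.1% (log2 fold change 0.48, SE 0.0445, adjusted p = 5.05e-10, and 0.00189 against that minimum). DDX51 (ENSG00000185163, chr12:132136594-132144319, minus strand) rose by 34.2% (log2 fold change 0.42, SE 0.0405, adjusted p = 1.04e-09, and 0.0241 against that minimum). DDX51 did not pass against that minimum when CP+siNC replicate 1, CP+siNC replicate 3 or CP+siNAT10 replicate 1 was left out. None of these 3 genes overlapped another tested gene.

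**Figure D3:**
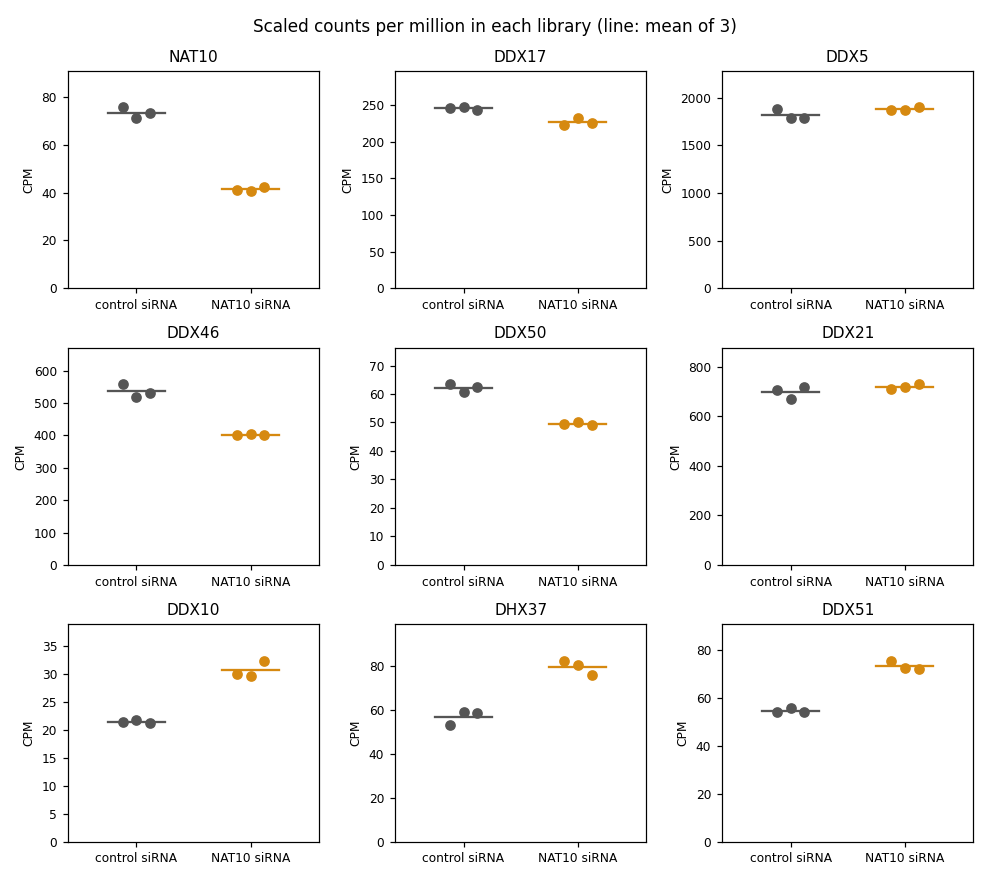
Scaled CPM of NAT10 and 8 helicases in each of the 6 libraries, with a point per library and a line at the mean of each group of 3, on axes that start at 0. NAT10, DDX17, DDX46 and DDX50 are lower in every knockdown library, DDX10, DHX37 and DDX51 are higher in every knockdown library, and DDX5 and DDX21 overlap between the groups.

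Of 16 ribosome biogenesis helicases 8 were higher, 3 were lower and 5 did not pass the test, beside 21.8% higher and 22.3% lower among all tested genes. The median log2 fold change of the 16 was 0.09. DDX49 went from 32.1, 34.0 and 33.6 CPM to 40.8, 40.1 and 44.0 CPM (log2 fold change 0.33, SE 0.0499, adjusted p = 3.45e-06). DDX24, the most abundant of these 8 per length, went from 570.4, 538 and 576 CPM to 702, 709 and 698 CPM (log2 fold change 0.32, SE 0.0336, adjusted p = 4.5e-09). DDX18, needed for the large subunit, went from 106, 105 and 112 CPM to 134, 128 and 135 CPM (log2 fold change 0.30, SE 0.0371, adjusted p = 1.14e-07). In these 3 genes the groups did not overlap, and the steps exceeded the spread within each group. DDX31 and DDX55 had smaller rises of 0.23 and 0.13, and DDX55 did not pass without CP+siNC replicate 2 or CP+siNAT10 replicate 3. Genes on the opposite strand overlap DDX49 (ENSG00000268193, with 82% as many counts), DDX55 (EIF2B1, 82.7%) and DDX31 (GTF3C4, 253%). Their log2 fold changes were 0.17, 0.21 and -0.17, and their part in these values was not tested.

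Against these rises, DDX50 went from 63.6, 60.9 and 62.3 CPM in the control to 49.6, 50.1 and 49.1 CPM in the knockdown libraries. Its knockdown libraries were all below its control libraries. DDX50 (ENSG00000107625, chr10:68901286-68946847, plus strand), a nucleolar helicase that arose with DDX21 from a gene duplication, fell by 20.3% (log2 fold change -0.33, SE 0.0413, adjusted p = 1.65e-07). DDX21, which acts in ribosomal RNA transcription and processing, was at 708, 672 and 719 CPM and 709, 718 and 731 CPM. Its groups overlapped and it did not pass the test (log2 fold change 0.04, SE 0.0336, adjusted p = 0.34), but did with scaling by library size alone (log2 fold change 0.08, adjusted p = 0.0402). DDX52, a small subunit factor, went from 174, 173 and 172 CPM to 149, 147 and 159 CPM, lower in every knockdown library (log2 fold change -0.19, SE 0.0351, adjusted p = 6.61e-05). DDX47 had a smaller fall of -0.11 that did not pass with scaling by library size alone or without CP+siNAT10 replicate 3. On the same strand it overlaps APOLD1, which had 111% as many counts and a log2 fold change of -0.11. DDX27, DDX54, DDX56 and DHX33 had log2 fold changes from 0.03 to 0.04 and did not pass the test. DHX33 overlaps C1QBP on the same strand, which had 210% as many counts and a log2 fold change of -0.44.

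The promoters of the 4 members past the minimum fold change are shown because their mRNA moved most among the members that passed the test, each as the 300 bases from 250 before to 50 after the annotated start, from RefSeq (GRCh38.p14), 5′ to 3′ on the strand of the gene. Capitals mark matches on either strand to CACGTG (E-box), CCGGAAG (a motif of ETS factors), TGACGTCA (cAMP response element), TCTCGCGA or CCAAT.
DDX10: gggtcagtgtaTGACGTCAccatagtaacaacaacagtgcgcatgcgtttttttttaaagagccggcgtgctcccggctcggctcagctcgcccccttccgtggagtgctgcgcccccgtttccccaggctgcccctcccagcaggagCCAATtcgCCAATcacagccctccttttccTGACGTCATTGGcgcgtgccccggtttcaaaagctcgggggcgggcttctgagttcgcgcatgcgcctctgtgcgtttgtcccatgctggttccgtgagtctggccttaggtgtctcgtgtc
DHX37: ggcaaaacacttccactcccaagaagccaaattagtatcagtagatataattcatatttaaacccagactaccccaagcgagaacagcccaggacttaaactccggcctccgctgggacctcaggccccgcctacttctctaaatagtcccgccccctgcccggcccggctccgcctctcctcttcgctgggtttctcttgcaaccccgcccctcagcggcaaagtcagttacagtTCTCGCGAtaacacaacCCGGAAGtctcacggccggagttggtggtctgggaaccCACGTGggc
DDX51: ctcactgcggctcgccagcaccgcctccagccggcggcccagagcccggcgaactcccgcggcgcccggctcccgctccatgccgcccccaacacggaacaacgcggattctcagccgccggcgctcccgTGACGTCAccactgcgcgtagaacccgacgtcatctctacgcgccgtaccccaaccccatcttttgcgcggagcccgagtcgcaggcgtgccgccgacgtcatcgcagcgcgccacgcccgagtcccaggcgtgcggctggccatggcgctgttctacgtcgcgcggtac
DDX46: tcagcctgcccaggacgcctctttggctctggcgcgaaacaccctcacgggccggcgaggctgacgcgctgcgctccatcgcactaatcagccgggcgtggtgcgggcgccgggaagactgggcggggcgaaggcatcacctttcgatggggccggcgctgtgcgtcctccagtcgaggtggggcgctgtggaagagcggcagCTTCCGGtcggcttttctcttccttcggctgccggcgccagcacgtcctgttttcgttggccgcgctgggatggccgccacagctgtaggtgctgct
These windows are chr11:108664819-108665118 on the plus strand for DDX10, chr12:124989082-124989381 on the minus strand for DHX37, chr12:132144270-132144569 on the minus strand for DDX51 and chr5:134758529-134758828 on the plus strand for DDX46. DDX10 holds TGACGTCA and CCAAT, and its TGACGTCA nearer to the start overlaps a CCAAT match on the other strand by 1 base. DDX51 holds TGACGTCA, DHX37 holds TCTCGCGA, CCGGAAG and CACGTG, and DDX46 holds CCGGAAG.

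Promoter windows were found for 43 of the 50 members, 59 windows in all because some genes have several starts. TGACGTCA was in 5 of the 59 windows (8.47%), and in 1.85% of all 35116 windows in the table. CCGGAAG was in 25 member windows (42.4%) and in 10.3% of all windows. CACGTG was in 9 (15.3%, against 7.26%), CCAAT in 24 (40.7%, against 34.6%) and TCTCGCGA in 1 (1.69%, against 1.15%). The set of all windows was not limited to tested genes, and genes with several starts count more than once. These differences are thus not shown to be particular to the helicases. Of the windows of members that were higher 31.6% held CCGGAAG, of those that were lower 45.5%, and of those that did not pass the test 48.3%. In the same order, CACGTG was in 21.1%, 9.09% and 13.8% of the windows, and CCAAT in 31.6%, 54.5% and 41.4%. The 1 member window with TCTCGCGA was of a higher member. TGACGTCA was in 3 of 19 windows of higher members, in 0 of 11 windows of lower members and in 2 of 29 windows of the others. A match is a description of letters and was not tested for any function.

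Among helicases of mRNA export, translation and decay, 2 of 10 measured members were higher and 2 lower, near the 21.8% and 22.3% of all tested genes. DDX19A, which releases proteins from mRNA at the nuclear pore, went from 164, 160.1 and 177 CPM to 210.0, 196 and 193 CPM. The groups did not overlap (log2 fold change 0.26, SE 0.0389, adjusted p = 3.34e-06). Its neighbour and near-identical copy DDX19B was at 57.0, 55.1 and 56.5 CPM and 58.2, 57.9 and 56.0 CPM (log2 fold change 0.03, SE 0.0413, adjusted p = 0.616). Both overlap a same-strand gene without a symbol in the table (ENSG00000260537), which had a log2 fold change of 0.23, so how their reads were divided is uncertain. DDX3X, a factor of translation initiation on structured mRNA, went from 540.4, 509 and 528 CPM to 568, 559 and 572 CPM (log2 fold change 0.11, SE 0.0328, adjusted p = 0.00823), a rise that did not pass without CP+siNC replicate 2 (adjusted p = 0.0794). Its copy on the Y chromosome, DDX3Y, was the lowest member, at 0.937 ± 0.227 CPM (SD, n = 3) and 1.34 ± 0.213 CPM (SD, n = 3), and did not pass the test (log2 fold change 0.51, SE 0.251, adjusted p = 0.0989). Leaving out CP+siNC replicate 3 moved that log2 fold change to 0.33 (adjusted p = 0.368).

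In the same list, DHX9, which unwinds RNA and RNA-DNA hybrids, went from 258, 251 and 252 CPM to 234, 237 and 236 CPM. The knockdown libraries were all lower (log2 fold change -0.11, SE 0.0319, adjusted p = 0.00741), and the fall did not pass with scaling by library size alone (adjusted p = 0.0703). DDX39A, a paralog of DDX39B in mRNA export, went from 97.0, 96.8 and 93.1 CPM to 91.0, 89.6 and 88.9 CPM (log2 fold change -0.09, SE 0.0365, adjusted p = 0.0443). It passed in 5 of 15 settings, and its adjusted p ranged from 0.0266 to 0.251. DDX6, a core factor of mRNA decay and P-bodies, and DHX29, DHX34 and DHX36 had log2 fold changes from -0.03 to 0.07 and did not pass the test.

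The remaining lists are short. DHX58, a regulator of RNA sensing also called LGP2, went from 6.85, 7.57 and 7.58 CPM to 6.46, 5.67 and 6.19 CPM, lower in every knockdown library (log2 fold change -0.27, SE 0.102, adjusted p = 0.0349). It passed in 8 of 15 settings, with adjusted p from 0.0273 to 0.152. DDX1, part of the tRNA ligase complex, did not pass the test at 0.05, but did with scaling by library size alone (adjusted p = 0.0286). DHX30, a factor of the mitochondrial ribosome, went from 79.3, 85.5 and 87.9 CPM to 74.5, 76.4 and 80.2 CPM. Its groups overlapped, and its fall (log2 fold change -0.13, SE 0.0419, adjusted p = 0.0136) did not pass with scaling by library size alone or without CP+siNC replicate 3, CP+siNAT10 replicate 1 or CP+siNAT10 replicate 2. DDX28, also mitochondrial, did not pass the test at -0.05.

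DHX40 and DHX32, helicases with few known functions, moved in opposite directions. DHX40 went from 90.4, 81.6 and 83.6 CPM to 71.2, 71.1 and 73.2 CPM (log2 fold change -0.25, SE 0.0411, adjusted p = 1.42e-05). DHX32 went from 41.6, 38.5 and 39.6 CPM to 50.2, 47.8 and 47.5 CPM (log2 fold change 0.28, SE 0.0464, adjusted p = 1.18e-05). Neither gene's groups overlapped, and BCCIP, which overlaps DHX32 on the opposite strand with 1040% as many counts, had a log2 fold change of -0.17. DHX57 and DDX59 did not pass the test, with log2 fold changes of -0.00204 and -0.14. DDX59 did pass with the replicate number as a block and when either CP+siNC replicate 2 or CP+siNAT10 replicate 3 was left out. The DNA helicase DDX11 was at 0.04 and did not pass, while its pseudogene copies DDX12P and DDX12B had log2 fold changes of 0.12 and 0.15. DDX12P passed in 10 of 15 settings, and DDX12B did not pass without CP+siNAT10 replicate 2 (adjusted p = 0.0521). The 3 genes are near-identical, so the division of reads among them is uncertain.

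Per kilobase of gene length, DDX5 was the most abundant member by far, at 196 ± 5.54 CPM per kilobase in the control libraries (SD, n = 3). It was followed by DDX23 at 76.0 ± 2.03, DDX21 at 75.4 ± 2.65 and DDX27 at 72.3 ± 3.54 CPM per kilobase, which did not differ from each other beyond their spread. DDX24 followed at 65.3 ± 2.42 CPM per kilobase. In the knockdown libraries the order was DDX5 at 202 ± 2.07, DDX23 at 86.1 ± 0.667, DDX24 at 81.8 ± 0.645 and DDX21 at 77.6 ± 1.16 CPM per kilobase. DDX46 went from rank 7 to rank 9, and DDX17, at 24.6 ± 0.214 and 22.7 ± 0.5001 CPM per kilobase, from rank 16 to rank 18 of 50. The median member was at 17.0 CPM per kilobase in the control libraries. DDX10, with the largest rise among members that passed the test, was among the lowest at 1.19 ± 0.0105 CPM per kilobase. Of the 25 members above the median level 9 were higher and 8 lower, and of the 25 below it 10 were higher and 4 lower, beside 21.8% and 22.3% of all tested genes.

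**Figure D4:**
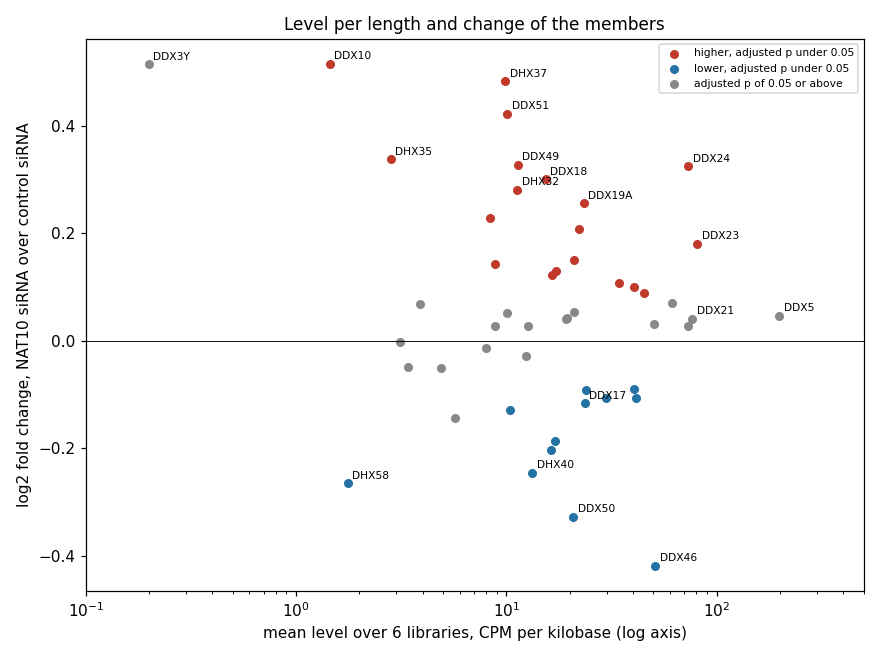
Log2 fold change of each member against its mean level over the 6 libraries in CPM per kilobase, on a log axis, with colours for the result of the test. DDX5 stands alone on the right with a change of 0.05, DDX46 is the largest fall at -0.42, and the rises of DDX10, DHX37 and DDX51 lie at lower levels.

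By name, 14 of 34 DDX genes were higher and 7 lower, and 5 of 16 DHX genes were higher and 5 lower, against 21.8% and 22.3% of all tested genes.

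Ratios between paralogs, taken as counts within each library and not scaled for length, compare genes without any library scaling. DDX50 counts were 8.98%, 9.06% and 8.67% of DDX21 counts in the control libraries and 6.99%, 6.97% and 6.72% in the knockdown libraries. The groups did not overlap, and the log2 ratio was -3.49 ± 0.0336 in the control and -3.86 ± 0.0315 in the knockdown libraries (SD, n = 3), a difference of -0.37. DDX19A counts were 288%, 290.4% and 313% of DDX19B counts against 361%, 338% and 345%, also without overlap. For both pairs the two-sided exact permutation test gave p = 0.1, the smallest it can give here (adjusted p = 0.14). DDX39A counts were 32.5% ± 0.617 of DDX39B counts in the control and 32.5% ± 0.815 in the knockdown libraries (SD, n = 3), with overlapping groups (exact permutation p = 1). DDX12P and DDX12B relative to DDX11 went from 29.6% to 31.3% and from 40.0% to 43.1% on average, each without overlap (exact permutation p = 0.1). DDX3Y over DDX3X had overlapping groups, with a log2 difference of 0.43 (exact permutation p = 0.3, adjusted p = 0.35), although the CPM of DDX3Y alone did not overlap.

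**Figure D5:**
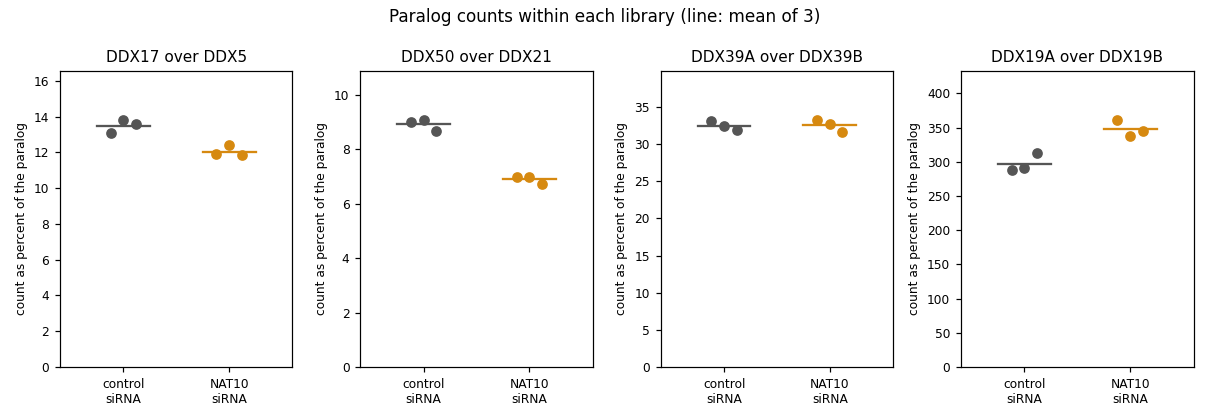
Counts of a helicase as a percentage of the counts of its paralog in each library, with a point per library and a line at the mean of each group of 3, on axes that start at 0. DDX17 over DDX5 and DDX50 over DDX21 are lower in every knockdown library, DDX39A over DDX39B overlaps at 32.5%, and DDX19A over DDX19B is higher in every knockdown library.

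Outside the DDX and DHX symbols, 21 of 23 other RNA helicases were tested, and 10 were higher and 3 lower (21.8% and 22.3% of all tested genes). RIGI, a sensor of viral RNA formerly named DDX58, went from 18.9, 20.2 and 19.7 CPM to 10.4, 13.7 and 10.7 CPM (log2 fold change -0.76, SE 0.0815, adjusted p = 9e-09). IFIH1, its relative MDA5, went from 6.74, 7.05 and 7.01 CPM to 4.18, 3.71 and 3.47 CPM (log2 fold change -0.88, SE 0.114, adjusted p = 2.78e-07). In both genes every knockdown library was lower, with falls larger than any among the 50 members. EIF4A2, a helicase of translation initiation, was the other fall at -0.25. TDRD9, a germline helicase, went from 31.7 ± 1.46 CPM (SD, n = 3) to 45.5 ± 1.74 CPM (SD, n = 3) and MOV10 from 52.8 ± 0.601 CPM (SD, n = 3) to 65.9 ± 0.386 CPM (SD, n = 3). Both rose, by 0.52 and 0.32 on the log2 scale, with groups that did not overlap. EIF4A1, EIF4A3, UPF1 and SNRNP200 had log2 fold changes from -0.04 to 0.00 and did not pass the test.

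Helicases depend on cofactors, many of them with a G-patch or an MIF4G domain. Of 52 listed cofactors all were tested, as 53 genes because PINX1 has 2 identifiers, and 24 were higher and 14 lower (21.8% and 22.3% of all tested genes). Their median log2 fold change was 0.08. EIF4G2, a translation factor that binds EIF4A, went from 606, 591 and 587 CPM to 394, 388 and 402 CPM (log2 fold change -0.59, SE 0.0323, adjusted p = 9.22e-15). UTP14C, a copy of the DHX37 cofactor UTP14A, went from 62.0 ± 3.96 CPM (SD, n = 3) to 44.5 ± 0.335 CPM (SD, n = 3) (log2 fold change -0.48, SE 0.0464, adjusted p = 1.5e-09), while UTP14A itself had a smaller fall of -0.13. These falls separated the groups. CWC22, which brings EIF4A3 to the spliceosome, rose by 0.50 and EDC3, which binds DDX6, by 0.59 on the log2 scale. Of the nucleolar cofactors of DHX15, GPATCH4 rose by 0.30 and NKRF fell, with a log2 fold change of -0.40 (adjusted p = 2.23e-07). PINX1, another listed cofactor, did not pass the test under either identifier, with log2 fold changes of 0.02 and 0.14. RTRAF, of the tRNA ligase complex with DDX1, also fell at -0.40. Of the same complex, FAM98B fell at -0.30 and RTCB at -0.16, while FAM98A rose by 0.39 on the log2 scale. The nuclear pore cofactors of DDX19A, NUP214 and GLE1, rose by 0.34 and 0.18 on the log2 scale. GPATCH4, NKRF, PINX1, RTRAF, FAM98A, FAM98B, RTCB, NUP214, GLE1 and UTP14A were chosen after their values were seen.

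Partners of DDX17 and DDX5 were listed too, of which ESR1 and MYOD1 had too few counts to be tested. DGCR8, CREBBP, EP300, HNRNPF, HNRNPH1, REST and SRA1 did not pass the test, with log2 fold changes from -0.08 to 0.09. Of all tested genes 44.1% passed it. HDAC1, a deacetylase in repressor complexes, went from 256, 266 and 248 CPM to 366, 367 and 374 CPM (log2 fold change 0.53, SE 0.0335, adjusted p = 2.69e-13). YAP1, a coactivator of the Hippo pathway, went from 50.6, 55.5 and 50.4 CPM to 39.9, 43.1 and 40.4 CPM (log2 fold change -0.35, SE 0.0483, adjusted p = 8.88e-07). Both differences separated the groups. DROSHA, which cuts primary microRNAs, rose by 0.19 on the log2 scale, and CTNNB1 had a small fall of -0.10.

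The spans of 26 of the 50 members overlapped another tested gene, 9 of them on the same strand, and for 17 the other gene had at least 10% as many counts. The library kit marks strand, but whether counting used it is not given in the sources used here, so values of overlapping genes are uncertain. Among the 18 members with neither an overlap nor a near-identical copy, 8 were higher and 5 lower, beside 21.8% and 22.3% of all tested genes.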

How the data were processed

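HK-2 RNA was sequenced as stranded mRNA libraries whose primers carried 8 random bases as molecular identifiers, meant for removing duplicates. Whether the deposited counts had duplicates merged is not given in the sources used here. The deposited values are raw counts per gene made by the authors with featureCounts. Their processing notes name Trimmomatic 0.36, STAR 2.5.3a, Subread 1.5.1, edgeR 3.12.1 and the build GRCh38. All 50 members overlapped their GENCODE 29 position.

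The test used edgeR 4.0.16 under R 4.3.3: filterByExpr (minimum count 10, minimum total 15, 19874 genes and 99.8% of counts kept), TMM, glmQLFit and glmQLFTest without a block, and glmTreat against a fold change of 1.25. SE is the log2 fold change over the root of F. DESeq2 1.42.0, edgeR's exact test, other scalings and filters, a replicate block and leaving out each library were alternatives. Named genes were NAT10, DDX17, paralogs, the 8 largest rises and 8 largest falls with separate groups and at least 5 CPM, the most abundant member of each role, and up to 4 changes in each related list. DDX12B was placed with DDX11 after the table was seen. The members and lists were chosen with earlier results of these data known. The fitting code was tested on simulated data. Sequence and figure steps used Python 3.11.15, pandas 2.3.3 and matplotlib 3.10.9.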

Additional observations from a re-analysis of the deposited data

How the results depend on the processing

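Of the 31 members that passed the test, 19 passed in all 15 settings that refitted the counts (13 higher and 6 lower, DDX17 among the latter), and 0 changed sign. The matching share of all called genes was not counted, so this is not shown to be particular to the helicases. The number of tested genes that passed stayed within 1.5 times of 8771 in every alternative. With scaling by library size alone, the members that were lower numbered 6 and the median log2 fold change of the members was 0.0829. The 6 members no longer called lower were DDX39A, DDX39B, DDX47, DHX30, DHX58 and DHX9, and by that scaling the median over all tested genes moved from 0.01 to 0.04. Leaving out overlapping genes and near-identical copies left 18 members, with 8 higher and 5 lower. Leaving out only the copies, an alternative chosen after seeing the data, gave 15 higher and 10 lower, and of all tested genes 21.8% were higher and 22.3% lower. The count past the minimum fold change was 0 with DESeq2 (3 at an unadjusted p under 0.05) and 2 to 4 when single libraries were left out, the 2 without CP+siNC replicate 1, and the cause was not tested. The member median then ranged from 0.0295 to 0.0583, the members that were higher from 14 to 18 and the members that were lower from 8 to 11. In the same fits 3798 to 4028 of all tested genes were higher and 3961 to 4152 lower. With the replicate number as a block, 8526 genes passed the test, 18 members were higher and 12 lower. The numbers pair no samples in the labels, and deviations of same-numbered libraries correlated across genes at -0.04, 0.02 and -0.15, so not every library was closest to its own number. Among the 40 named genes, 527 of 559 comparisons kept direction and side of the threshold, 29 lost the call, 3 gained it and 0 reversed. The depth limits DDX3Y, at 13 to 38 counts, whose 95% interval ran from 0.00 to 1.03. With 3 libraries a group, an exact test of 1 value cannot give a p below 0.1.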
